A study of Mus musculus with 2 samples.

Results

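Among mouse splenic CD8 T cells, a small set carried transcripts of both Hdac9 and Myb. A barcode entered the set when it had at least 200 detected genes, under 10% mitochondrial UMIs (unique molecular identifiers, each standing for 1 captured RNA molecule), at least 1 UMI of Cd8a or Cd8b1, at least 1 UMI of a CD3 chain (Cd3d, Cd3e or Cd3g), at least 1 UMI of Hdac9, at least 1 UMI of Myb and fewer than 3 UMIs of Ikzf2, which encodes Helios. The rule found 84 cells, 42 in each of 2 libraries, out of 21623 deposited barcodes, 20881 barcodes that met the limits on genes and mitochondrial share, and 18893 gated CD8 T cells that met every condition except those on Hdac9 and Myb. The cells were thus chosen by their measured UMIs of Hdac9, Myb, CD8, CD3 and Ikzf2, and the levels of those genes are given below only as a description.

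The study profiled CD8 T cells from spleens of wild-type C57BL/6 mice by 10x Genomics single-cell RNA sequencing, after enrichment with magnetic beads. The DHEA library came from mice given dehydroepiandrosterone, an adrenal androgen precursor used to model polycystic ovary syndrome, at 40 mg/kg under the skin every day for 21 days in 20 µL of sesame oil. The CTRL library came from mice given the same volume of oil on the same schedule. Cells were pooled, how many mice gave them is not stated in the labels, and each condition is 1 library, so no test between conditions was possible, and comparisons of cells within a library are given by size without a test. Intervals are exact 95% intervals that cover counting error alone, neither the spread between animals nor the uneven spread of UMIs over cells.

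Hdac9 encodes a class IIa histone deacetylase, a family with little catalytic activity of its own that acts as a corepressor of MEF2 transcription factors and leaves the nucleus after calcium signals. Myb encodes c-Myb, a transcription factor needed by haematopoietic progenitors and thymocytes and known to sustain the self-renewing, stem-like pool of CD8 T cells in memory and in chronic infection. Recent thymic emigrants are T cells newly exported from the thymus: they keep some Cd24a, Sox4 and Tox, CD8 emigrants often carry the gut-homing genes Ccr9 and Itgae, and they are low in Il7r, Bcl2 and Qa2 molecules. Stem-like CD8 T cells are marked by Tcf7, Slamf6, Id3, Myb and Cxcr5, and retain lymphoid homing genes such as Ccr7.

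The 42 cells in CTRL made up 0.498% of 8441 gated CD8 T cells (Clopper-Pearson interval 0.359 to 0.672%), and the 42 in DHEA 0.402% of 10452 (0.290 to 0.543%). The intervals overlap. Median depth differed, at 5571 UMIs per gated cell in CTRL and 4422 in DHEA, and co-expressing cells were deeper than gated cells, at 7376 and 4840.5. With every cell thinned to 2000 UMIs before the rule was applied, 20 of 7612 cells in CTRL (0.263%) and 18 of 8241 in DHEA (0.218%) passed, and again the intervals overlapped (0.161 to 0.405% and 0.129 to 0.345%). The libraries shared 51 barcodes, none of them among the 84 cells.

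Hdac9 counts per co-expressing cell ran from 1 to a median of 4 and a highest count of 43 UMIs in CTRL, and from 1 to a median of 3 and a highest count of 24 in DHEA. Myb counts ran from 1 to a median of 2.5 in CTRL and 2 in DHEA, with a highest count of 9 in both. Many cells therefore stood well inside the limit: 27 cells in CTRL and 25 in DHEA had 3 or more Hdac9 UMIs, and 26 and 20 had at least 2 UMIs of each gene. At the edge, 4 cells in CTRL and 9 in DHEA had exactly 1 UMI of each. Just outside it, 8 gated cells in CTRL and 16 in DHEA had 3 or more Hdac9 UMIs and no Myb UMI. The Helios limit left out 9 cells in CTRL and 10 in DHEA that had both genes, 6 of them with exactly 3 Ikzf2 UMIs. Within the limit, 23 cells in CTRL and 25 in DHEA had no Ikzf2 UMI.

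**Figure D1:**
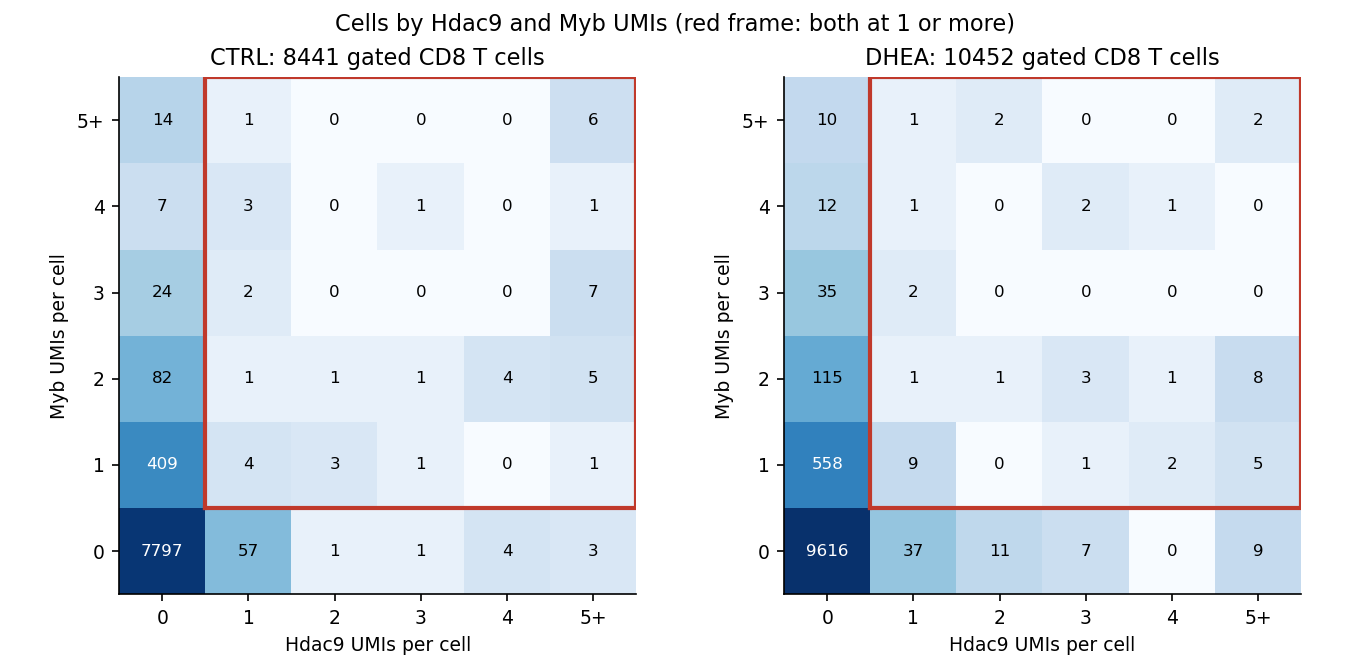
Gated CD8 T cells by Hdac9 UMIs (horizontal axis) and Myb UMIs (vertical axis) per cell, with the number of cells printed in each square and shading by the log10 of that number plus 1. The red frame holds the 42 co-expressing cells of each library, most of whose Hdac9 counts lie at 3 or more.

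How often the 2 genes were found together is a description of the rule's own values. A Myb UMI was present in 42 of 108 gated cells with Hdac9 in CTRL (38.9%, interval 29.7 to 48.7%) and in 536 of 8333 without it (6.43%). In DHEA it was present in 42 of 106 cells with Hdac9 (39.6%, 30.3 to 49.6%) and in 730 of 10346 without it (7.06%). With cells ranked by depth in 4 equal bins, the Myb share was higher in cells with Hdac9 in every depth bin of both libraries, by point estimate, although in the lowest bin of CTRL it rested on 3 of 16 cells (18.8%, 4.05 to 45.6%, against 3.96% of 2096 cells). Since RNA free in the suspension can add single UMIs, barcodes with no CD8 and no CD3 UMI were read too. In them Hdac9 was found in 3 of 37 in CTRL (8.11%) and 9 of 130 in DHEA (6.92%). Myb was found in 4 (10.8%) and 23 (17.7%), and 2 of those in DHEA held both genes. Median depths were 1413 and 945 UMIs. By point estimate both genes were thus more frequent there than in gated cells, at 1.28% and 1.01% for Hdac9 and 6.85% and 7.39% for Myb. Those barcodes may be other cells that express either gene, and the part of free RNA in the cells with 1 UMI of each gene was not tested.

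**Figure D2:**
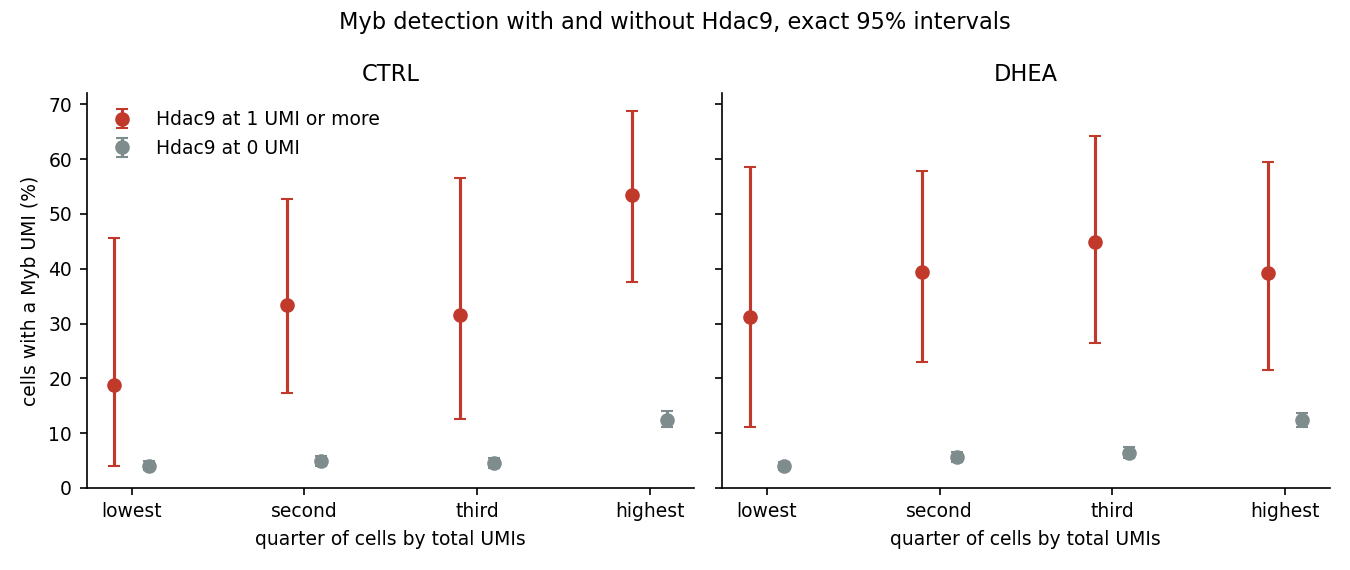
Percent of gated cells with a Myb UMI (vertical axis, exact 95% intervals) in each of 4 equal bins of cells ranked by total UMIs (horizontal axis), for cells with at least 1 Hdac9 UMI (red) and none (grey). Red points lie above grey points in all bins of both libraries, from 18.8% against 3.96% in the lowest bin of CTRL to 53.5% against 12.4% in its highest.

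To describe what else the cells expressed, each was set beside the 5 other gated cells of its own library nearest in total UMIs, 210 comparison cells per library, whose median depths equal those of the co-expressing cells. UMIs were summed over cells and expressed as CPM, the count scaled to a sum of 1000000 UMIs. In all, 4464 genes had at least 100 UMIs over both kinds of cells in both libraries, with the 8 genes of the rule left out. With 5 comparison cells to each co-expressing cell, a gene low in co-expressing cells can pass this minimum through comparison cells alone. A gene found mainly in co-expressing cells can fall short of it, as Sox4, Cxcr5 and Alcam did below. The counts and medians of the lists therefore favour lower genes. A gene is called higher or lower below where its CPM differed at least 1.5-fold in the same direction in both libraries. By that rule 166 genes (3.72%) were higher and 130 (2.91%) lower in co-expressing cells, and these percentages are the background for every list below. In CTRL alone 10.3% were higher and 11.6% lower by 1.5-fold, and in DHEA alone 14.9% and 10.0%. The median log2 ratio of all measured genes was 0.043. Of the genes called, 56.1% were higher, a split that scaling decides: it was 30.7% with TMM factors, which move the all-gene median to -0.11, and 39.4% with mitochondrial and ribosomal protein genes left out of the totals.

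Neither of the profiles asked about was met in full. Of genes known for recent thymic emigrants, Tox was higher and Il7r and Bcl2 lower, but Ccr9 and Itgae were lower as well. Sox4 had a higher CPM in both libraries but fell under the UMI minimum, and the Qa2 gene H2-Q7 lay within 1.5-fold. Cd24a, Rag1 and Rag2 had no UMI in co-expressing or comparison cells, so they cannot tell these cells apart. Of the stem-like list, Slamf6, Id3, Cd27 and Cd28 were higher and Il7r lower, while Tcf7 and Lef1 lay within 1.5-fold of other CD8 T cells. Cxcr5 had a higher CPM in both libraries but fell under the UMI minimum. Of 7 measured genes of the stem-like exhausted state, 4 were higher (Tox, Slamf6, Id3 and Eomes) and none lower. Pdcd1, an inhibitory receptor that stem-like cells of chronic infection carry, had 3 UMIs in CTRL and none in DHEA. It was too sparse in comparison cells as well for the groups to be compared. From these markers no cell type name was given to the cells.

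The gate genes themselves show the choice. Hdac9 reached 949 CPM (CTRL) and 849 CPM (DHEA) against 1.81 and 3.55 in comparison cells, and Myb at 380 and 440 against 15.7 and 18.7. The CD3 chains were near the comparison level, with log2 ratios from -0.25 to 0.14. CD8 transcripts were present at a lower level: Cd8a was at 238 and 240 CPM against 359 and 439, and Cd8b1 at 452 and 715 against 949 and 1319. Ikzf2, capped by the rule, was still at 78.3 and 116 CPM against 19.4 and 21.3.

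Of genes known to be high in recent thymic emigrants, 8 of 15 could be measured, 2 higher, 2 lower and 4 past 1.5-fold in neither direction in both libraries, with a median log2 ratio of 0.055 beside 0.043 for all genes. Ccr9 and Itgae reached the UMI minimum mainly through comparison cells, and Sox4 missed it, so these counts and this median follow in part from that minimum. The thymic export genes split. Tox, an HMG-box transcription factor needed for T cell development in the thymus and also for persistence of exhausted T cells, was at 503 CPM in CTRL and 591 in DHEA co-expressing cells against 178 and 142 in comparison cells, 2.83-fold and 4.16-fold higher, with intervals of the log2 ratio from 1.22 to 1.78 and from 1.71 to 2.40. It was detected in 33 and 29 of 42 co-expressing cells, against 136 and 86 of 210 comparison cells. Ccr9, the receptor for the gut chemokine CCL25 that thymocytes and young CD8 T cells carry, went the other way, with 4 UMIs in CTRL and 1 in DHEA (12.1 and 4.44 CPM) against 109 and 66 (65.9 and 58.6 CPM). Its log2 ratios were -2.45 (-4.35 to -1.05) and -3.72 (-9.05 to -1.19). Without the Helios limit, which adds 19 cells, they were -0.64 and -2.60. Itgae, the integrin CD103, was equally sparse, with 3 and 2 UMIs against 85 and 42, log2 ratios of -2.51 (-4.81 to -0.91) and -2.07 (-5.16 to -0.13).

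Pecam1 (CD31) was the second gene of that list to be higher, at 205 and 244 CPM against 135 and 109, a 1.51-fold difference in CTRL that TMM scaling brings to a log2 ratio of 0.51. Sox4, a transcription factor of thymocytes and recent emigrants, had 22 and 25 UMIs in co-expressing cells against 19 and 19 in 5 times as many comparison cells. That is 66.3 and 111 CPM against 11.5 and 16.9, log2 ratios of 2.53 (1.58 to 3.49) and 2.72 (1.80 to 3.66), but its UMIs came from 10 cells in each library and it fell short of the 100 UMIs asked of a measured gene. Cd24a, which encodes the heat-stable antigen lost as emigrants mature, and the recombinase genes Rag1 and Rag2 had no UMI in co-expressing or comparison cells. Dntt, the thymocyte DNA polymerase, had none in co-expressing cells and 3 and 10 in comparison cells. A floor of 3 UMIs is 9.04 CPM in the CTRL sum and 13.3 in the DHEA sum, and the exact upper limits of a count of 0 are 11.1 and 16.4 CPM, so low levels were not detectable at this depth. Of 14 immature thymocyte genes, 7 had no UMI in any of the 84 cells, among them Ptcra, Arpp21 and Cd4. Of the same list 2 were measured, Tcf12 and Rmnd5a, and neither was called.

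Genes that emigrants carry at a low level until they mature gave calls in both directions: of 13, 11 were measured, 2 were lower, 1 was higher and the median log2 ratio was -0.11. Il7r, the interleukin-7 receptor chain on which naive and memory T cells depend, was at 69.3 CPM in CTRL and 111 in DHEA against 485 and 527, with log2 ratios of -2.81 (-3.47 to -2.21) and -2.25 (-2.89 to -1.67). It was detected in 9 and 14 of 42 co-expressing cells against 168 and 157 of 210. Bcl2, the survival factor, was at 202 and 204 CPM against 387 and 376. Cd28, the costimulatory receptor, was the member that was higher, at 232 and 249 CPM against 146 and 132, a call lost with TMM scaling (0.58 in CTRL). The Qa2 gene H2-Q7 had log2 ratios of 0.32 and 0.14, Ly6c2 of -0.31 and 0.08, Cd55 of 0.32 and -0.10, and Klf2, which drives egress and homing genes, of -0.68 and -0.38. S1pr1, the egress receptor, was at 57.2 and 138 CPM against 132 and 155, past 1.5-fold in CTRL alone.

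Of 18 stem-like CD8 genes, 16 were measured, 4 were higher and 1 lower, with a median log2 ratio of 0.34 (0.16 in CTRL and 0.50 in DHEA). Slamf6, the surface receptor Ly108 by which stem-like CD8 T cells are often sorted, was at 334 and 489 CPM against 105 and 91.5, log2 ratios of 1.68 (1.32 to 2.03) and 2.42 (2.02 to 2.82). It was found in 35 of 42 co-expressing cells in each library and in 94 and 66 of 210 comparison cells. Id3, an inhibitor of E proteins kept by stem-like and memory precursor cells, was at 184 and 289 CPM against 52.0 and 65.8, log2 ratios of 1.82 (1.32 to 2.31) and 2.13 (1.63 to 2.64). The others higher were Cd28, given above, and Cd27, a costimulatory receptor of the TNF receptor family named here after its values were seen, with a log2 ratio of 0.76 in each library. The member that was lower was Il7r. With TMM scaling 2 of the 16 were higher and 2 lower.

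The transcription factors that define the stem-like and naive programme did not differ by 1.5-fold in both libraries. Tcf7 (TCF-1) was at 606 and 675 CPM against 501 and 495, log2 ratios of 0.27 (0.04 to 0.50) and 0.45 (0.18 to 0.71), and was detected in 41 and 37 of 42 cells. Lef1, its relative, was at 645 and 849 CPM against 884 and 1001. Bach2, a repressor that holds back effector differentiation, had log2 ratios of 0.21 and 0.56. The homing receptor gene Ccr7 had log2 ratios of -0.53 and -0.74, lower by 1.5-fold in DHEA alone, and in both libraries with TMM factors. Cxcr5, the follicle-homing receptor, had 13 and 12 UMIs against 16 and 12, which is 39.2 and 53.3 CPM against 9.68 and 10.7, too few to count as measured.

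Genes of the stem-like exhausted state gave 7 measured of 14, with 4 higher, none lower and a median log2 ratio of 1.78. The 4 that were higher were Tox, Slamf6 and Id3, which also stand in the lists above, and Eomes, a T-box factor of memory and NK cells, at 190 and 147 CPM against 38.1 and 56.0, log2 ratios of 2.32 (1.79 to 2.84) and 1.39 (0.74 to 2.02). Inhibitory receptor genes differed among themselves. Pdcd1 had 3 UMIs in CTRL and none in DHEA, against 4 and 0 in comparison cells, Lag3 had 1 and 0, and Tigit 2 and 0. Tox2, a relative of Tox, had none. The counts of Lag3, Tigit and Tox2 are given without a comparison, and no lower level is read from them. Ctla4 was higher, at 124 and 133 CPM against 41.1 and 46.2.

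**Figure D3:**
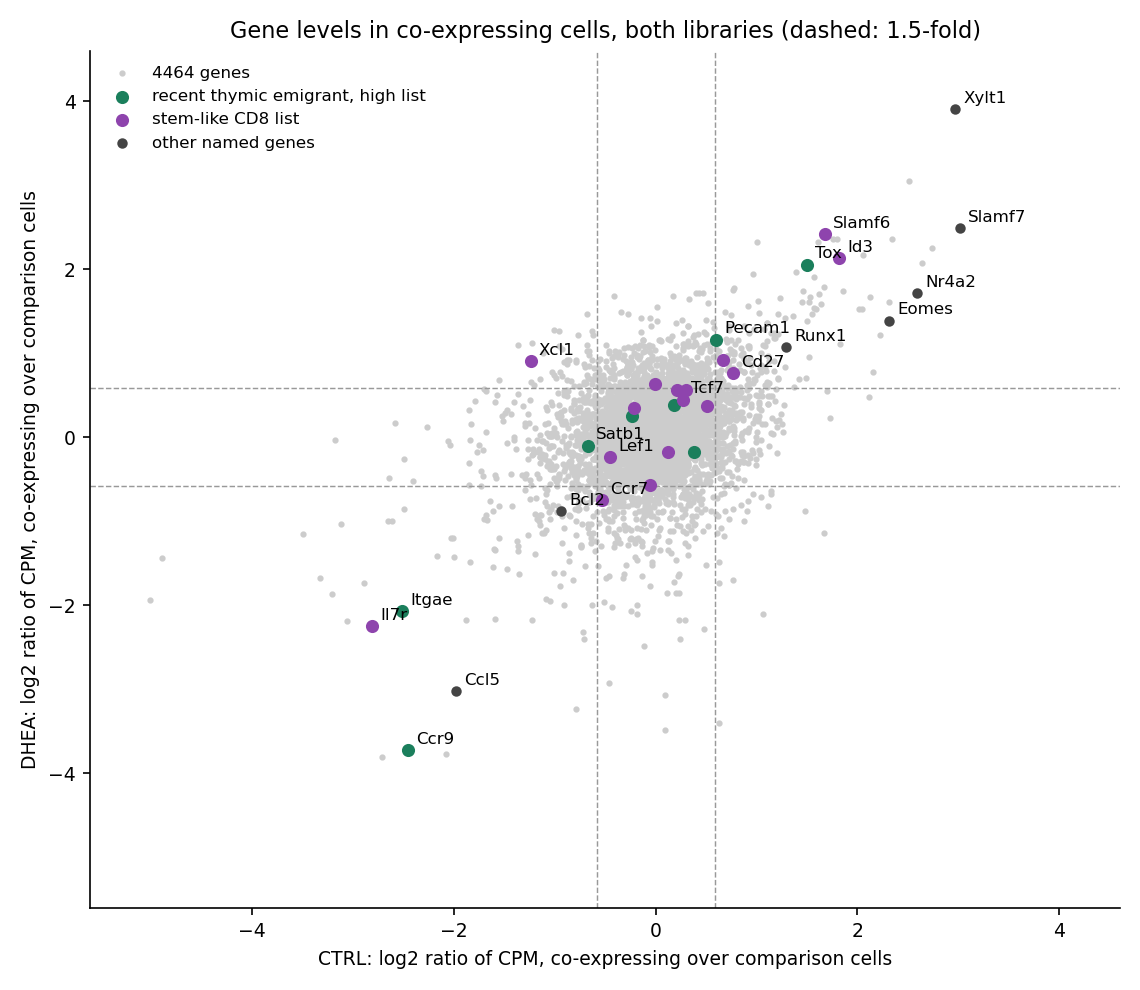
Log2 ratio of CPM in co-expressing over comparison cells in CTRL (horizontal axis) and DHEA (vertical axis) for 4464 measured genes (grey), genes high in recent thymic emigrants (green), stem-like CD8 genes (purple; Tox is drawn green) and other named genes (black), with dashed lines at 1.5-fold. Tox, Slamf6 and Id3 lie high in both libraries, Ccr9, Itgae, Il7r and Ccl5 low in both, and Tcf7 and Lef1 near the centre.

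Of 21 memory genes, 15 were measured, 7 were lower and 1, Eomes, was higher, with a median log2 ratio of -0.73. Ccl5, the chemokine stored by memory CD8 T cells, was at 199 and 195 CPM against 785 and 1582, log2 ratios of -1.98 (-2.36 to -1.62) and -3.02 (-3.48 to -2.59). Its 66 and 44 UMIs came from 13 and 12 cells, and 1 cell in each library held 22 and 17 of them. Il2rb, the receptor chain for interleukin-2 and interleukin-15, was at 48.2 and 53.3 CPM against 125 and 125. Il18r1, an interleukin-18 receptor chain, had 1 and 5 UMIs against 160 and 96, and Tbx21, the T-box factor T-bet, 1 and 7 against 56 and 78. Gzmm, a granzyme, had no UMI in co-expressing cells against 55 and 68, which at a floor of 3 UMIs per library gives log2 ratios of -1.88 and -2.18, with exact upper limits of -1.53 and -1.84.

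Of 21 cytotoxic effector genes 7 were measured, with 2 lower (S100a6 and Crip1) and none higher, and the list summed to 1389 and 1302 CPM against 1360 and 1780. All 12 stem cell memory genes were measured, 3 higher and 3 lower, or 1 and 4 with TMM factors and 2 and 5 of 9 measured in cells with at least 2 UMIs of Hdac9 and of Myb. Naive genes gave 15 measured of 16, with none higher and 3 lower: Il7r, Ccr9 and Igfbp4, an insulin-like growth factor binding protein of naive CD8 T cells that had 1 and 7 UMIs against 148 and 95. Among 14 measured cytokine receptor genes of 20, 4 were lower (Il7r, Il18r1, Il2rb and Il6ra) and 1 was higher (Ifnar1, log2 ratios 0.82 and 0.88, named after its values were seen). In the list of adhesion and homing genes, 19 of 22 were measured, Cxcr4 and Gpr183 were higher, and Ccr9 and Itgae lower, and with TMM factors 5 were lower. Gpr183, the oxysterol receptor EBI2 that guides cells within the spleen, was at 419 and 515 CPM against 154 and 169. Cxcr4, the receptor for CXCL12, was at 75.3 and 93.3 CPM against 25.4 and 32.0.

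Beyond the lists, the highest ratios among measured genes began with Xylt1, a xylosyltransferase that starts proteoglycan chains, at 133 CPM in each library against 16.9 and 8.89. Slamf7, a SLAM family receptor, was at 196 and 204 CPM against 24.2 and 36.4, and 21 of its 65 UMIs in CTRL came from 1 cell. Nr4a2, an orphan nuclear receptor induced by antigen receptor signals, was at 124 and 93.3 CPM against 20.6 and 28.4, in 14 and 7 cells. The rest of the 10 highest were Slc28a2b, Mpp1, Elk3, Ift80, Rnf19a, Slamf6 and Id3, with mean log2 ratios between those of Xylt1 and Id3. The 10 lowest were Il18r1, Jaml, Igfbp4, Ccr9, S100a6, Dtx1, Plac8, Il7r, Ccl4 and Ccl5. Some genes below 100 UMIs had most of their UMIs in the co-expressing cells, and these were picked after their values were seen. Alcam (CD166), an adhesion molecule that binds CD6, had 35 and 31 UMIs in 18 and 10 co-expressing cells against 6 and 1 UMIs. Pou2af1, the transcriptional coactivator OCA-B, had 46 and 29 UMIs in 21 and 14 cells against 16 and 6, and Kcnc1, a voltage-gated potassium channel, 33 and 33 in 23 and 16 cells against 13 and 11. Setbp1, a SET-binding protein, had 32 and 38 against 11 and 17. Sums can rest on very few cells: Rgs6 had 7 and 25 UMIs, all from 1 cell in each library.

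Most measured genes that work with Hdac9 or Myb were not called, and calls were more frequent in the 2 MYB lists than in the class IIa deacetylase list. Of 16 class IIa deacetylase and MEF2 genes, 14 were measured and 1 was higher, Camk2d, a calcium-dependent kinase, at 160 and 156 CPM against 103 and 91.5, a call that ends with TMM scaling (0.55 and 0.54). Hdac4 and Hdac7, the close relatives of Hdac9, had log2 ratios of -0.32 and -0.40, and of 0.10 and -0.50, and Mef2a and Mef2d of 0.23 and -0.58, and of 0.40 and 0.15. In the MYB family and partner list 8 of 12 were measured. Runx1, a RUNT family factor of early T cells, was higher at 307 and 293 CPM against 125 and 139, log2 ratios of 1.30 and 1.07, from 102 and 66 UMIs against 207 and 157. Runx3, which maintains the CD8 lineage and effector programme, was lower at 102 and 151 CPM against 234 and 285, log2 ratios of -1.19 (-1.74 to -0.68) and -0.92 (-1.47 to -0.40). Of 15 genes known as MYB targets in T cells, 7 were measured, none was higher and 2 were lower: Bcl2, and Ccnd2, a G1 cyclin, at 208 and 240 CPM against 432 and 446.

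Antigen receptor signalling genes were all measured, 32 of 32, with 3 higher and 1 lower. The higher ones were Nfatc1, a calcium-responsive transcription factor with log2 ratios of 1.03 and 0.82, and 2 restraints on signalling, the ubiquitin ligase Cblb (0.71 and 1.13) and the diacylglycerol kinase Dgkz (0.78 and 0.99). The lower one was the adaptor Pag1 (-1.59 and -1.34). Early activation genes gave 1 higher of 6 measured, Nr4a2, and genes sensitive to tissue handling gave 2 higher of 13, Fos (0.73 and 1.28) and Fosb (1.00 and 2.32). Type I interferon genes (18 measured), oxidative phosphorylation genes (24) and glycolysis genes (14) gave no call in either direction, and of 15 cell cycle genes 1 was lower, Ccnd2. Tsc22d3 (GILZ), a glucocorticoid-induced gene, was the single call among 4 measured of 20 steroid receptor, enzyme and response genes, at 84.4 CPM in each library against 184 and 186.

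Survival genes gave 12 measured of 20, with 4 higher and 1, Bcl2, lower. The higher ones were the BCL2 relative Bcl2a1b (log2 ratios 1.85 and 1.74), the death receptor Fas (0.78 and 0.59), and the inhibitors of apoptosis Xiap (0.66 and 0.69) and Birc3 (0.71 and 0.59, named after its values were seen). The last 3 lay near the limit, and with TMM factors 1 of the 12 was higher by 1.5-fold. Among T lineage transcription factors 23 of 33 were measured, with Runx1, Id3 and Tox higher and Runx3 and Id2 lower. Id2, an E protein inhibitor of effector cells that is read here after its values were seen, had log2 ratios of -1.07 and -0.81. Genes of agonist-selected or regulatory CD8 T cells gave 8 measured of 20, with Tox, Ctla4 and Bcl2a1b higher and Itgae and Il2rb lower. Of the other histone deacetylases 5 of 12 were measured and 1 was higher, Hdac1 (0.92 and 0.59), a call lost with TMM factors.

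Single-positive and Helios-high cells were set beside the co-expressing cells without matching for depth, and these differences were not tested. Gated cells with Hdac9 alone numbered 66 in CTRL and 64 in DHEA, cells with Myb alone 536 and 730, and CD8 T cells with 3 or more Ikzf2 UMIs 276 and 247. Most single-positive cells held exactly 1 UMI of their gene: 57 and 37 with Hdac9 alone, and 409 and 558 with Myb alone. Levels in these groups therefore rest mostly on cells at the edge of detection. Tox was at 193 and 266 CPM in Hdac9-only cells, 268 and 211 in Myb-only cells and 391 and 323 in Helios-high cells, each below the co-expressing level. Slamf6 was at 181 and 154 CPM, 159 and 146, and 188 and 150 in the same order. Il7r remained high in all 3 groups, at 550 and 357 CPM, 475 and 513, and 470 and 493. Ccl5 marks the gap to Helios-high cells, which had 3056 and 4550 CPM, log2 ratios of co-expressing over Helios-high of -3.94 (-4.31 to -3.59) and -4.54 (-5.00 to -4.11). Sox4 was nearer between them, at 41.9 and 37.7 CPM in Helios-high cells, and the CTRL interval of its log2 ratio spans 0 (0.66, -0.08 to 1.35). The 19 Helios-high cells with both Hdac9 and Myb had 956 and 836 CPM of Tox and 97.8 and 155 of Il7r. By point estimate Ccr9 and Sox4 lay above the cells under the Helios limit, but on few UMIs from 9 cells in CTRL and 10 in DHEA. Ccr9 was at 130 CPM in CTRL (12 UMIs from 4 cells) and 30.9 in DHEA (2 UMIs, interval 3.75 to 112). Sox4 was at 206 and 263 CPM, from 19 UMIs in 7 cells and 17 UMIs in 5. Cd24a had 2 UMIs in each library, from 1 cell in CTRL and 2 in DHEA. Ccl5 had no UMI in CTRL and 2228 CPM in DHEA, from 5 cells.

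**Figure D4:**
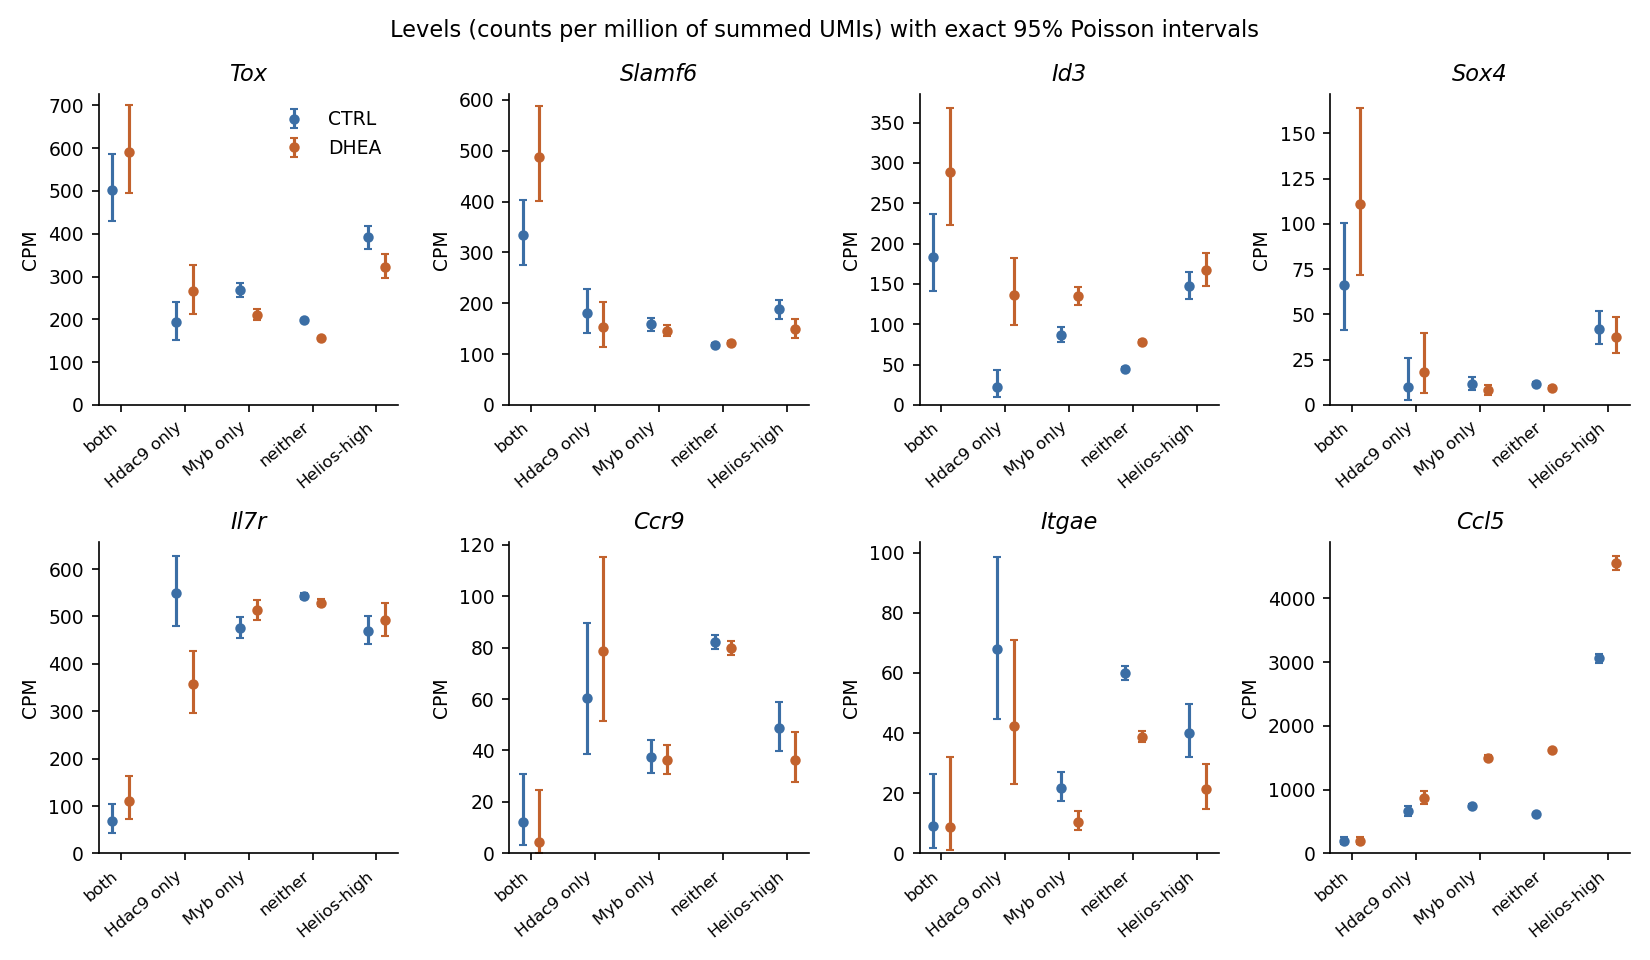
CPM of summed UMIs (vertical axes, each from 0, exact 95% Poisson intervals) for 8 genes in cells with both Hdac9 and Myb, Hdac9 only, Myb only, neither, and Helios-high cells, in CTRL (blue) and DHEA (orange). Cells with both genes are highest for Tox, Slamf6, Id3 and Sox4 and lowest for Il7r, Ccr9, Itgae and Ccl5, by point estimate in both libraries.

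Clustering made without the 8 gate genes still placed most of the cells together. In the first clustering 56 of 84 (66.7%, 55.5 to 76.6%) fell in 1 of 12 clusters, which held 6.70% of all kept cells and 37 of 420 comparison cells (8.81%). At a lower resolution of 0.5 separation was weaker, with 59 of 84 (70.2%) in a cluster of 3558 cells that held 82 of 420 comparison cells (19.5%). With every listed gene and marker left out as well, 57 of 84 (67.9%, 56.8 to 77.6%) fell in 1 of 11 clusters that held 280 cells, 1.34% of the kept cells, and 6 of 420 comparison cells (1.43%). That cluster took 34 of 42 co-expressing cells in CTRL (81.0%, 65.9 to 91.4%) and 23 of 42 in DHEA (54.8%, 38.7 to 70.2%). Besides Hdac9 and Myb, for which 57 of its cells were chosen, its leading genes were Alcam, Cd200, Pou2af1, Kcnc1, Cldn10, Ctla2b, Setbp1 and Izumo1r, given as a description.

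Genes kept out of that clustering divided the cells inside it from those outside. Tox was at 581 and 735 CPM in the 34 and 23 cells inside and at 93.8 and 327 in the 8 and 19 outside. Il7r was at 35.9 and 41.2 CPM inside and 244 and 239 outside, the latter still below the comparison cells. Ccl5 was at 158 and 103 CPM inside and 413 and 365 outside, where in CTRL all 22 UMIs came from 1 cell. The cluster's other gated cells with fewer than 3 Ikzf2 UMIs, 88 in CTRL and 77 in DHEA, had Tox at 413 and 441 CPM, Slamf6 at 301 and 263 and Il7r at 159 and 172. The cluster held 25 and 17 Helios-high cells besides. In the 88 and 77 cells Myb was found in 51 and 37 cells and Hdac9 in 4 and 11. Of gated cells with 3 or more Hdac9 UMIs and no Myb UMI, 4 of 8 in CTRL and 6 of 16 in DHEA lay in this cluster.

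**Figure D5:**
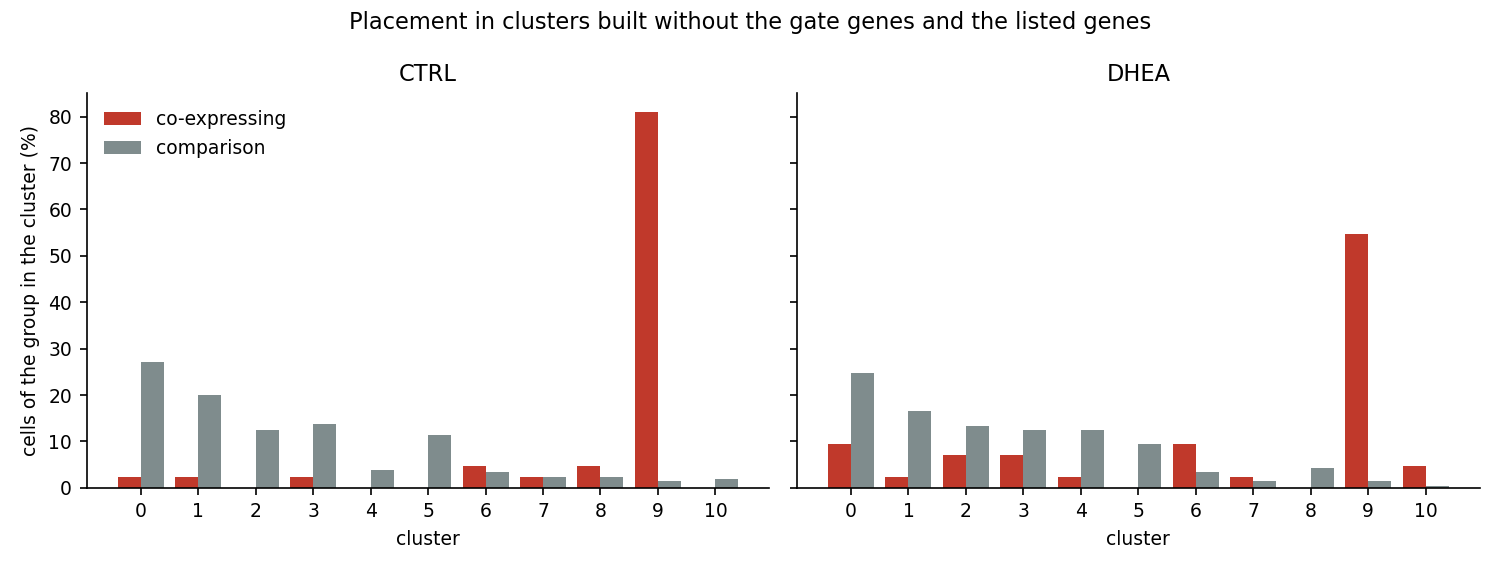
Percent of co-expressing cells (red) and depth-matched comparison cells (grey) in each of 11 clusters (horizontal axis) built without the gate genes, listed genes and markers. Cluster 9 holds 81.0% of the co-expressing cells in CTRL and 54.8% in DHEA, against 1.43% of comparison cells in each.

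Transcripts that mark other cells were sparse. B cell genes summed to 259 and 227 CPM against 252 and 311, with 8 of 11 at no UMI in any of the 84 cells and Ighm making up most of the rest. Myeloid and dendritic genes summed to 90.4 and 71.1 CPM against 72.6 and 61.3 (11 of 14 at no UMI), and erythroid, platelet and progenitor genes to 3.01 and 8.89 against 7.26 and 40.0 (10 of 12). The NK list summed to 226 and 169 CPM against 76.8 and 138, with 7 of 11 at no UMI, among them Ncr1, Tyrobp and Fcer1g, and Eomes giving 63 of 75 and 33 of 38 UMIs. The CD4 and regulatory T list summed to 142 and 169 CPM against 45.4 and 51.5, with Cd4 and Foxp3 at no UMI and Ctla4 giving 41 of 47 and 30 of 38. Gamma-delta T genes summed to 42.2 and 4.44 CPM against 6.65 and 8.0, with Trdc at 9 UMIs in CTRL and none in DHEA, from 3 cells. Zbtb16, the factor of NKT and other innate-like T cells, had no UMI. Nuclear-retained transcripts, a sign of leaking cells or nuclei, summed to 32893 and 33856 CPM against 27915 and 26082, Malat1 giving most, and no gene of that list was called. Their part in the results was not tested.

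Between conditions, 689 genes had at least 100 UMIs over the 84 cells, and 34 (4.93%) were at least 1.5-fold higher and 10 (1.45%) lower in DHEA co-expressing cells. In comparison cells, which hold about 5 times the UMIs, the same genes gave 0.726% and 0.581%. Of 132 genes with at least 500 UMIs none passed 1.5-fold either way, and the split of calls turned with scaling, from 77.3% higher to 38.0% with TMM factors and 56.8% without mitochondrial and ribosomal protein genes. The 5 highest were Ldlrad4, Jarid2, Klf2, Chaserr and Ogt. Ldlrad4, a membrane protein that dampens TGF-beta signalling, rested on 49 UMIs in CTRL and 83 in DHEA, a log2 ratio of 1.32. Klf2 was at 334 CPM in CTRL and 671 in DHEA, a log2 ratio of 1.00, and was 0.70 in comparison cells of the same libraries. The 5 lowest were Apobec3, Hnrnpa1, Atp5pb, Spacdr and Traf1, the first at 253 CPM in CTRL and 116 in DHEA. For genes that set the cells apart, log2 ratios of DHEA over CTRL were 0.23 (-0.11 to 0.57) for Tox, 0.55 (0.15 to 0.94) for Slamf6, 0.65 (0.13 to 1.18) for Id3 and 0.68 (-0.20 to 1.56) for Il7r. Id3 is thus among the 34, from 61 and 65 UMIs, and Il7r, with 23 and 25, was too sparse to be counted. TMM factors lower all these ratios, moving the median of the 689 genes from 0.031 to -0.095, and take Id3 under 1.5-fold. In comparison cells Id3 and Il7r also had a higher CPM in DHEA than in CTRL, and Tox and Slamf6 a lower CPM.

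Receptor sequence was not analysed here, but V segment transcripts in these 3' libraries give a limited view of clonality. Of 165 Trav and Trbv segments, 16 were seen in 11 co-expressing cells of CTRL and 22 in 20 of DHEA, and no segment was seen in more than 2 cells of a library. Among comparison cells, 72 of 210 in CTRL and 59 of 210 in DHEA had a V segment UMI. The most common segment was seen in 8 of them in each library.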

How the data were processed

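The data are 2 single-cell libraries of splenic CD8 T cells, 1 per condition, with 9495 barcodes in CTRL and 12128 in DHEA. What the authors deposited are unnormalized counts of UMIs for every gene in every barcode. Cell Ranger 8.0.1 is named in the file headers, and mm39 and Seurat 4.3.0 in the submitters' processing notes. Here the rule was applied to each barcode, UMIs were summed over cells and scaled to CPM, and each log2 ratio got an exact binomial interval from how its 2 sums divide. Groups come from the submitters' titles. The median depth was 5430 UMIs per barcode in CTRL and 4049 in DHEA, so genes under 100 summed UMIs were not called. With 1 library per condition no test was run. Scrublet in scanpy 1.11.5 marked 0 cells in CTRL and 1 in DHEA, under 0.5%, so it had not worked and no doublet was removed. Clustering used 2000 variable genes, 30 components, 15 neighbours and Leiden resolution 1, scaled within library. TMM factors came from edgeR 4.0.16. Ratio and interval calculations were run on simulated sums with Poisson noise alone. Those sums lack the uneven spread of UMIs over cells, so the intervals were not tested for it.

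Named genes were the 10 highest and 10 lowest by mean log2 ratio, the 5 highest and 5 lowest of DHEA over CTRL, up to 4 of each gene list with the largest mean ratio, and a panel of 50. The members, lists and rules were chosen with earlier results of these data known. Alternatives were stricter or looser limits on Hdac9, Myb and Ikzf2, thinning, doublet scores, other comparison cells, scalings and count minimums.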

Additional observations from a re-analysis of the deposited data

Results flagged for a closer look

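Xcl1, the chemokine made by stem-like and memory CD8 T cells, was flagged because its 2 libraries moved past 1.5-fold in opposite directions. Its log2 ratio of co-expressing over comparison cells was -1.24 (-2.22 to -0.39) in CTRL, from 12 UMIs against 141, and 0.91 (0.04 to 1.72) in DHEA, from 18 UMIs against 48. The difference between the libraries was 2.14 on the log2 scale and was not tested. In DHEA 9 of the 18 UMIs came from 1 cell. Against all other gated cells, not matched for depth, the CTRL value was 0.29. Passing 1.5-fold in 1 library was common among the 4464 measured genes. In CTRL alone 10.3% were higher and 11.6% lower, and in DHEA alone 14.9% and 10%.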

How the results depend on the processing

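The number of measured genes changed with the setting, from 4464 for co-expressing over comparison cells and 689 for DHEA over CTRL. Requiring 2 UMIs of each of Hdac9 and Myb gave shares of 0.308% in CTRL and 0.191% in DHEA and a recent thymic emigrant median of 0.20. Of 370 genes, 8 were then higher and 6 lower in DHEA. Ikzf2 at 0 gave 0.306%, 0.263%, a median of 0.31 and 22 of 348 genes higher in DHEA. No limit on Ikzf2 gave 16 of 987 lower in DHEA. Thinning gave 0.263%, 0.218% and emigrant and stem-like medians of 0.48 and 0.62. It left 73 of 1955 genes lower in co-expressing cells, a larger share than 130 of 4464, and 8 of 255 higher in DHEA. Leaving out high Scrublet scores gave an emigrant median of -0.044. All other gated cells as the comparison gave 735 higher and 407 lower of 9239 genes, and a median of 0.18. Without mitochondrial and ribosomal protein genes the median was -0.044 and 19 of 689 genes were lower in DHEA. TMM factors gave 104 higher and 235 lower of 4464 genes and a median of -0.10, with 19 higher and 31 lower of 689 in DHEA. A minimum of 20 UMIs gave 519 higher and 427 lower of 8479 genes, and 559 and 410 of 4121 in DHEA. A minimum of 500 UMIs gave 18 and 22 of 815, and 0 and 0 of 132 in DHEA. At 2-fold, a limit chosen after seeing the data, 55 were higher and 41 lower, and 4 and 3 in DHEA. CTRL alone gave an emigrant median of -0.024. The causes were not tested. The other 60 of these alternative values stayed within 1.5 times, the interval or 1 SD of the value given. Among named genes, Tox, Slamf6, Id3, Il7r and Ccr9 kept direction and size limit under all 10 settings tried for single genes, although Ccr9 came to -0.64 in CTRL without the Ikzf2 limit and fell under the UMI minimum on thinning. No paired analysis was possible between the conditions because each is 1 library. Depth limits genes such as Sox4, Cxcr5 and Cd24a, and the number of cells, 42 per library, limits every ratio.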
